A study of Homo sapiens with 12 samples.

Results

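The clustered protocadherins were followed through 12 libraries of ribosome footprints (mRNA fragments shielded from nuclease by ribosomes at work) from A375, an established human melanoma line. Members were taken by gene symbol, as every PCDHA, numbered PCDHB and PCDHG gene of the deposited count table, and came to 52 of its 13074 genes: 15 alpha, 15 beta and 22 gamma. The alpha cluster holds 13 numbered members and 2 of the C type, and the gamma cluster holds 12 of subfamily A, 7 of subfamily B and 3 of the C type. Another protein-coding gene of the family, PCDHB1, was not analysed here. The groups, of 3 libraries each, were FTSJ1 knockout cells without selenite, control cells without selenite, knockout cells with 30 nM sodium selenite, and control cells with 30 nM sodium selenite. FTSJ1 is a tRNA methyltransferase, selenite is a source of selenium, and the series asked how selenoproteins are translated when a methylated uridine of the selenocysteine tRNA is lost. The labels name a single knockout line, KO1, so FTSJ1 loss cannot be told apart from anything else in which that line departs from the controls. No RNA libraries were used, so mRNA level and translation were not separated, and fewer cells with a transcript cannot be told apart from less of it per cell.

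Clustered protocadherins are cell-surface adhesion proteins of the cadherin superfamily, and each isoform binds in trans to the same isoform on a neighbouring cell. In the alpha and gamma clusters, every member has a variable exon behind a promoter of its own, spliced to constant exons that all members of the cluster share. Beta genes have no constant exons. In neurons single promoters are chosen at random, while the C-type members are used more widely. CTCF and cohesin, which fold the cluster so that promoters meet distant enhancers, bind at a conserved element of many of these promoters, and promoter methylation keeps unchosen members silent. Melanocytes, from which melanoma arises, come from the neural crest, a tissue of neural origin.

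Promoter windows are shown for the 10 members that were lower in knockout without selenite and have a window (that of PCDHB11 was not held). They are also shown for PCDHA10, whose mean was higher in knockout both without and with selenite, though it passed the test in neither. Others shown are PCDHB4, which was higher in knockout with selenite, and PCDHGC3, the member with the most counts. Windows of the other members called with selenite are not printed. Sequences are from the RefSeq promoter table (GRCh38.p14), plus strand of chromosome 5. Capitals mark a match to CGCT, the core letters of the conserved element. Whether each match lies in that element was not tested. The letters around the match of PCDHA7 differ from those in the other alpha windows printed.
PCDHA6 (chr5:140827885-140827944): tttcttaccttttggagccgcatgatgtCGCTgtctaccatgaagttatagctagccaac
PCDHA7 (chr5:140834225-140834284): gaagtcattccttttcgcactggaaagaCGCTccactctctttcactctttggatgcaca
PCDHA8 (chr5:140841118-140841177): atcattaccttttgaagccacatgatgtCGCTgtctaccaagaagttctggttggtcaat
PCDHA12 (chr5:140875232-140875291): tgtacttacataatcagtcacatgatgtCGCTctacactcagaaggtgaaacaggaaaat
PCDHA10 (chr5:140855829-140855888): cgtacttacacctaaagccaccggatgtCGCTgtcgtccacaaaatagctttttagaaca
PCDHB7 (chr5:141172554-141172613): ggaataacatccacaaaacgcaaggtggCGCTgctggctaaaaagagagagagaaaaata
PCDHB8 (chr5:141177765-141177824): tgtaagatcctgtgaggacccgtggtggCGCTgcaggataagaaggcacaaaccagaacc
PCDHB13 (chr5:141213853-141213912): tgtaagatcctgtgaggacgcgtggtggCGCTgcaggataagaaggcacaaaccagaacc
PCDHB4 (chr5:141121711-141121770): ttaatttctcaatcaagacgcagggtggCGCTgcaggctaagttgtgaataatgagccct
PCDHGA1 (chr5:141330391-141330450): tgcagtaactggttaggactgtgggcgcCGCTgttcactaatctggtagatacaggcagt
PCDHGB1 (chr5:141350013-141350072): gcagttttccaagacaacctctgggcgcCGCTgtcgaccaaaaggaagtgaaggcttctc
PCDHGA7 (chr5:141382637-141382696): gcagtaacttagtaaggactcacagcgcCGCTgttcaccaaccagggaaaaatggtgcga
PCDHGC3 (chr5:141475868-141475927): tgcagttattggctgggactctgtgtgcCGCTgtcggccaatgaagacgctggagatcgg
Of the windows printed, the alpha ones have atgt before the core except that of PCDHA7, which has aaga, the beta ones have gtgg, and the gamma ones have gc. Windows that are not printed vary more, and PCDHAC1 has tcca and PCDHGA4 gtgt there. The windows of PCDHB8 and PCDHB13 matched at 59 of 60 bases. How reads that match several members were counted is not given in the sources used here, so counts of such near-copies could be split between them.

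A promoter window was held for 46 of the 52 members, and none was held for PCDHA3, PCDHA13, PCDHB6, PCDHB11, PCDHGA12 or PCDHGC5. The printed stretches were cut around a CGCT, so they hold it by construction, and the search covered the longer windows they came from. CGCT, searched on both strands, occurred in 45 of the 46 (97.8%), against 71.9% of all 27305 promoters searched. The longer CGCTGT, which contains CGCT, occurred in 7 of 13 alpha, 1 of 13 beta and 17 of 20 gamma windows, against 13.3% of all promoters. GTGGCGCT, which also contains CGCT and was read off the members' own windows, occurred in 13 of 13 beta windows, in 0 alpha and 0 gamma windows, and in 1.38% of all promoters. These are matches of letters, and they show neither binding nor use of a promoter.

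Library totals ran from 520989 to 1543627 counts, the lowest being 636920 and 520989 in replicates 2 and 3 of the knockout with selenite. Those shallow libraries also had the most histone footprints, at 88220 and 94246 CPM (counts scaled to equal library sizes), against 52943 to 75174 CPM in the other 10 libraries. The histone values use raw library totals, unlike the other CPM given here. Without selenite FTSJ1 itself had 2.59 ± 3.30 CPM in knockout and 50.5 ± 4.72 CPM in control cells, and with selenite 5.31 ± 6.10 CPM in knockout and 61.0 ± 9.85 CPM in control cells (SD, n = 3 each). Of 12 melanocyte lineage markers 8 were in the table, and PMEL, MLANA, TYR and TYRP1 were not analysed here. The 8 summed to 725 to 788 CPM in knockout against 1340 to 1420 CPM in control cells without selenite, and to 906 to 1040 CPM against 1378 to 1461 CPM with selenite. DCT was at 0 in the knockout libraries. Of 12 neuronal or glial markers 8 were in the table, and they summed to 488 to 581 CPM in knockout against 379 to 402 CPM in control cells without selenite, and to 658 to 762 CPM against 337 to 456 CPM with selenite. These shifts run alongside the genotype, and their part in the protocadherin values was not tested.

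Many gamma members had nearly the same count within a library. In each library 5 to 14 of the 22 gamma members, with a median of 10, lay within 3 counts of the lowest member. That lowest count was 18 to 78. In replicate 1 of the knockout with selenite, for example, PCDHGB6 and PCDHGB7 both stood at the lowest count of 78, and PCDHGC5 stood 1 count above it. RefSeq places all 22 gamma genes on chromosome 5 between 141330514 and 141512975 (GRCh38.p14), and all 22 end at base 141512975. The deviations of gamma members from their group means moved together over the 12 libraries, with a median correlation of 0.88 over 231 pairs, against 0.093 over 105 beta pairs. Pairs share libraries and depth, so these correlations are descriptions. Counting the lowest value once instead of 22 times took away 52.3% to 66.0% of the summed gamma counts.

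Alpha members showed a weaker form of the same pattern. The lowest alpha count was 4 to 28 per library, 1 to 5 members lay within 3 counts of it, and the median correlation was 0.66 over 105 pairs. All 15 alpha genes, between 140786140 and 141012347 on chromosome 5, end at base 141012347. The 15 beta genes, between 141094615 and 141249365, span 2750 to 5061 bases each and share no common end. No pair of members had identical counts in all libraries in any cluster. The table gives no positions within genes, so whether the repeated counts are reads on the constant exons was not tested, and the lowest member of a library is an upper limit for counts shared by all.

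**Figure D1:**
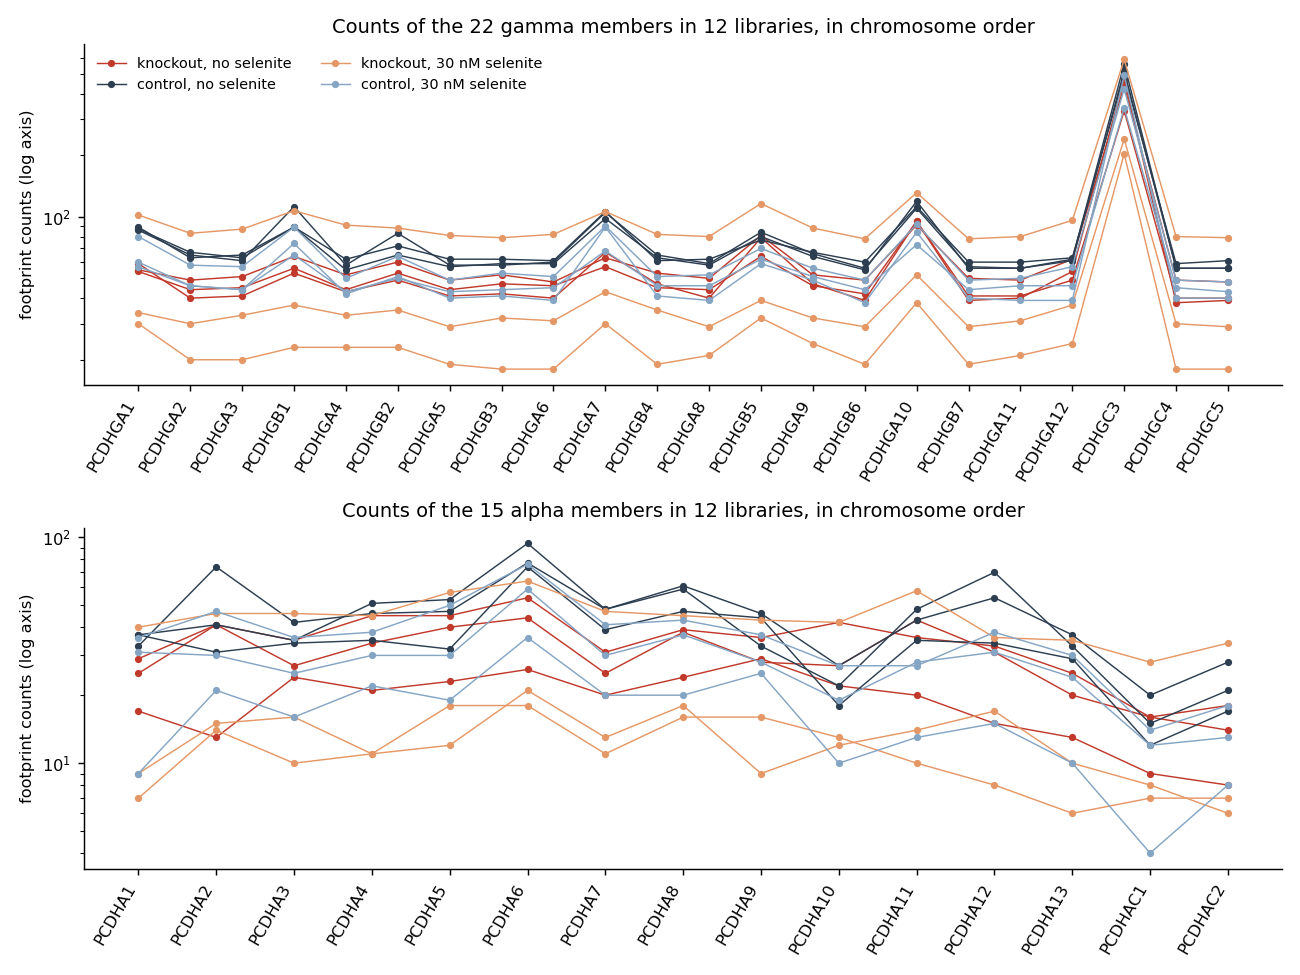
Footprint counts (log axis) of the 22 gamma members (top) and 15 alpha members (bottom) in chromosome order, 1 line per library, coloured by group. In the gamma cluster many members lie on or just above a floor of 18 to 78 counts per library, with PCDHGC3 far above it, whereas alpha members vary more.

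What stood above that floor differed greatly between gamma members. Summed over the 12 libraries, PCDHGC3 held 4543 counts above the lowest member, PCDHGA10 held 542, PCDHGA7 held 372, PCDHGB1 held 308, PCDHGB5 held 293, PCDHGA1 held 243 and PCDHGB2 held 143. PCDHGA12 held 100, and 8 members, the C-type PCDHGC4 and PCDHGC5 among them, held at most 30. For those 8, nearly all of the deposited count equals the floor. PCDHGC4 is needed for the survival of neurons in mouse. PCDHGC3 binds the Wnt pathway scaffold Axin1 in mouse. Its counts above the floor were set against the gamma total, in which the floor is counted once. They were 60.5% of that total in knockout cells without selenite (exact 95% interval 58.3% to 62.8%), and 59.1% in control cells without selenite (57.1% to 61.1%). With selenite this share was 60.9% in knockout (58.4% to 63.4%) and 59.4% in control cells (57.1% to 61.6%). The intervals cover counting error only and overlap throughout. Counts are not scaled to gene length, so levels of different members are not ranked.

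Without selenite, footprints of 11 of the 52 members (21.2%) were lower in knockout than in control cells and 0 were higher, at an adjusted p under 0.05 from edgeR's quasi-likelihood test with Benjamini-Hochberg adjustment over 10467 genes. Of all genes tested 12% were lower and 11.8% higher. The log2 fold change was negative for 49 members and positive for 3, with a median of -0.31, against a median of 0.00 over all genes. Many gamma members hold little beyond the floor, so these tallies are not of independent values. With the floor taken off, the median over all members was -0.35. It was -0.04 for gamma members, against -0.30 as deposited, and -0.71 for alpha members, against -0.49. The 11 were PCDHA6, PCDHA7, PCDHA8 and PCDHA12, then PCDHB7, PCDHB8, PCDHB11 and PCDHB13, then PCDHGA1, PCDHGB1 and PCDHGA7. Separate cultures are not stated for the libraries of any group, so these p-values measure the spread between libraries, which may be technical.

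In the alpha cluster the 4 members that fell are ordinary variable-exon isoforms. PCDHA6 had 35.9, 23.4 and 32.4 CPM in knockout libraries, against 62.7, 53.7 and 54.6 CPM in control libraries. PCDHA12 had 21.9, 13.5 and 22.8 CPM in knockout, against 36.0, 24.7 and 49.7 CPM in control libraries. PCDHA7 had 20.6, 18.0 and 18.4 CPM in knockout, against 32.0, 28.3 and 34.0 CPM in control libraries. For each of these the highest knockout library lay under the lowest control library. PCDHA8 had 25.9, 21.6 and 28.0 CPM in knockout, against 40.7, 34.1 and 41.9 CPM in control libraries, again without overlap. The log2 fold changes were -0.88 ± 0.19 for PCDHA6 (SE; edgeR adjusted p = 0.000422) and -0.90 ± 0.25 for PCDHA12 (edgeR adjusted p = 0.00728). They were -0.72 ± 0.22 for PCDHA7 (edgeR adjusted p = 0.0134) and -0.62 ± 0.20 for PCDHA8 (edgeR adjusted p = 0.0190).

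PCDHA10 stood apart within its cluster, with 27.9, 19.8 and 19.9 CPM in knockout, against 18.0, 13.1 and 15.6 CPM in control libraries. The groups did not overlap, but the change of 0.54 ± 0.26 did not pass (edgeR adjusted p = 0.130). The C-type members were PCDHAC1, with 10.2 ± 1.88 CPM in knockout and 10.9 ± 2.32 CPM in control cells, and PCDHAC2, which orders serotonergic axons in mouse, with 9.82 ± 2.41 CPM in knockout and 15.3 ± 3.18 CPM in control cells (SD, n = 3 each). Neither passed (edgeR adjusted p = 0.884 and 0.169). The alpha cluster as a whole, with the lowest count taken once, summed to 181 ± 23.4 CPM in knockout and 281 ± 38.5 CPM in control cells (SD, n = 3 each), and its libraries did not overlap.

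In the beta cluster PCDHB8 fell the most among the called members. PCDHB8 had 18.6, 10.8 and 15.5 CPM in knockout, against 34.7, 39.9 and 34.8 CPM in control libraries, a log2 fold change of -1.25 ± 0.23 (edgeR adjusted p = 7.73e-05). PCDHB7 had 15.3, 12.6 and 13.2 CPM in knockout, against 26.7, 19.6 and 25.5 CPM in control libraries. PCDHB11 had 10.6, 13.5 and 16.9 CPM in knockout, against 31.3, 21.1 and 24.1 CPM in control libraries. All of these are homophilic adhesion isoforms encoded by genes of their own, without constant exons. PCDHB13, the near-copy of PCDHB8 at the promoter, had 25.2, 17.1 and 26.5 CPM in knockout, against 35.3, 30.5 and 40.4 CPM in control libraries. None of the 4 overlapped between the groups. The log2 fold changes were -0.79 ± 0.25 for PCDHB7 (edgeR adjusted p = 0.0174), -0.90 ± 0.26 for PCDHB11 (edgeR adjusted p = 0.00768) and -0.61 ± 0.21 for PCDHB13 (edgeR adjusted p = 0.0323).

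PCDHB5 and PCDHB2, the beta members with the most counts apart from PCDHB3, overlapped between the groups. PCDHB2 had 62.4, 53.2 and 55.9 CPM in knockout, against 42.0, 48.7 and 53.9 CPM in control libraries, and PCDHB5 had 53.1, 58.6 and 58.1 CPM against 66.7, 56.6 and 46.8 CPM. The log2 differences were 0.25 (95% interval -0.08 to 0.58) and -0.01 (-0.35 to 0.34). As shares of the beta counts, PCDHB8 took 4.40% in knockout (exact 95% interval 3.38% to 5.62%) and 6.69% in control cells (5.71% to 7.78%). A single library set the share of control cells in part, because PCDHB3 had 548 counts there.

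PCDHB3 had 25, 38 and 24 counts in knockout libraries without selenite, against 21, 548 and 18 in control libraries without selenite. With selenite it had 45, 16 and 11 counts in knockout and 26, 16 and 50 in control libraries. The 548 counts, in replicate 2, were 51.1% of the beta counts of that library, against 3.04% to 9.87% in the other 11. The log2 fold change without selenite was -2.66 ± 1.28 (edgeR adjusted p = 0.191), and 0.72 without that library (edgeR adjusted p = 0.153). The beta total was 349 ± 2.98 CPM in knockout and 548 ± 200 CPM in control cells. Leaving PCDHB3 out, it was 326 ± 11.7 CPM in knockout and 406 ± 25.4 CPM in control cells (SD, n = 3 each), and the libraries still did not overlap.

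In the gamma cluster the members that fell were 3 of those with counts well above the floor. PCDHGA7 had 44.5, 51.4 and 46.4 CPM in knockout, against 70.0, 77.0 and 69.5 CPM in control libraries, a log2 fold change of -0.61 ± 0.15 (edgeR adjusted p = 0.00181). PCDHGB1 had 35.2, 50.5 and 47.1 CPM in knockout, against 74.7, 64.6 and 63.1 CPM in control libraries, a log2 fold change of -0.62 ± 0.17 (edgeR adjusted p = 0.00594). PCDHGA1 had 39.2, 48.7 and 40.5 CPM in knockout, against 57.3, 64.6 and 61.7 CPM in control libraries, a log2 fold change of -0.52 ± 0.17 (edgeR adjusted p = 0.0182). Groups did not overlap for any of them. They are variable-exon isoforms of subfamilies A and B.

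Taking the floor off separated the gamma members further, and this alternative was chosen after seeing the data. It tests differences of counts as if they were counts, and leaves out the counting error of the floor. Standard errors and p-values on this scale are therefore approximate and may be too small. On counts above the lowest member, the log2 fold changes became -1.08 ± 0.23 for PCDHGA7 (edgeR adjusted p = 0.000462), -1.22 ± 0.27 for PCDHGB1 (edgeR adjusted p = 0.000667) and -1.02 ± 0.31 for PCDHGA1 (edgeR adjusted p = 0.0144). PCDHGA12 had 16, 9 and 14 counts above the floor in knockout, against 6, 4 and 6 in control libraries. It was higher in knockout by 1.36 ± 0.46 on the log2 scale (edgeR adjusted p = 0.0272), where the counts as deposited gave -0.06 (edgeR adjusted p = 0.864). The floor itself was -0.32 ± 0.20 (edgeR adjusted p = 0.274). In the alpha cluster PCDHA10 was higher on this scale by 1.48 ± 0.38 (edgeR adjusted p = 0.00360), and PCDHA13 was lower, at -1.26 ± 0.41 (edgeR adjusted p = 0.0213). PCDHAC2 was also lower, at -2.91 ± 0.91 (edgeR adjusted p = 0.0166). It had 2, 0 and 0 counts above the floor in knockout, against 8, 5 and 6 in control libraries. In all 2 members were higher and 13 lower. The 13 include 4 beta members, from which no floor was taken. In the fit on deposited counts, 12% of all genes tested were lower and 11.8% higher.

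PCDHGC3 had 314, 297 and 322 CPM in knockout, against 372, 360 and 366 CPM in control libraries. The groups did not overlap, but the log2 fold change of -0.23 ± 0.09 did not pass (edgeR adjusted p = 0.0608). PCDHGA10, the gamma member next in counts above the floor, had 63.1, 85.6 and 67.0 CPM in knockout, against 73.3, 81.3 and 84.4 CPM in control libraries, which overlapped. The gamma total with the floor counted once was 463 ± 15.3 CPM in knockout and 552 ± 20.3 CPM in control cells (SD, n = 3 each), without overlap.

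**Figure D2:**
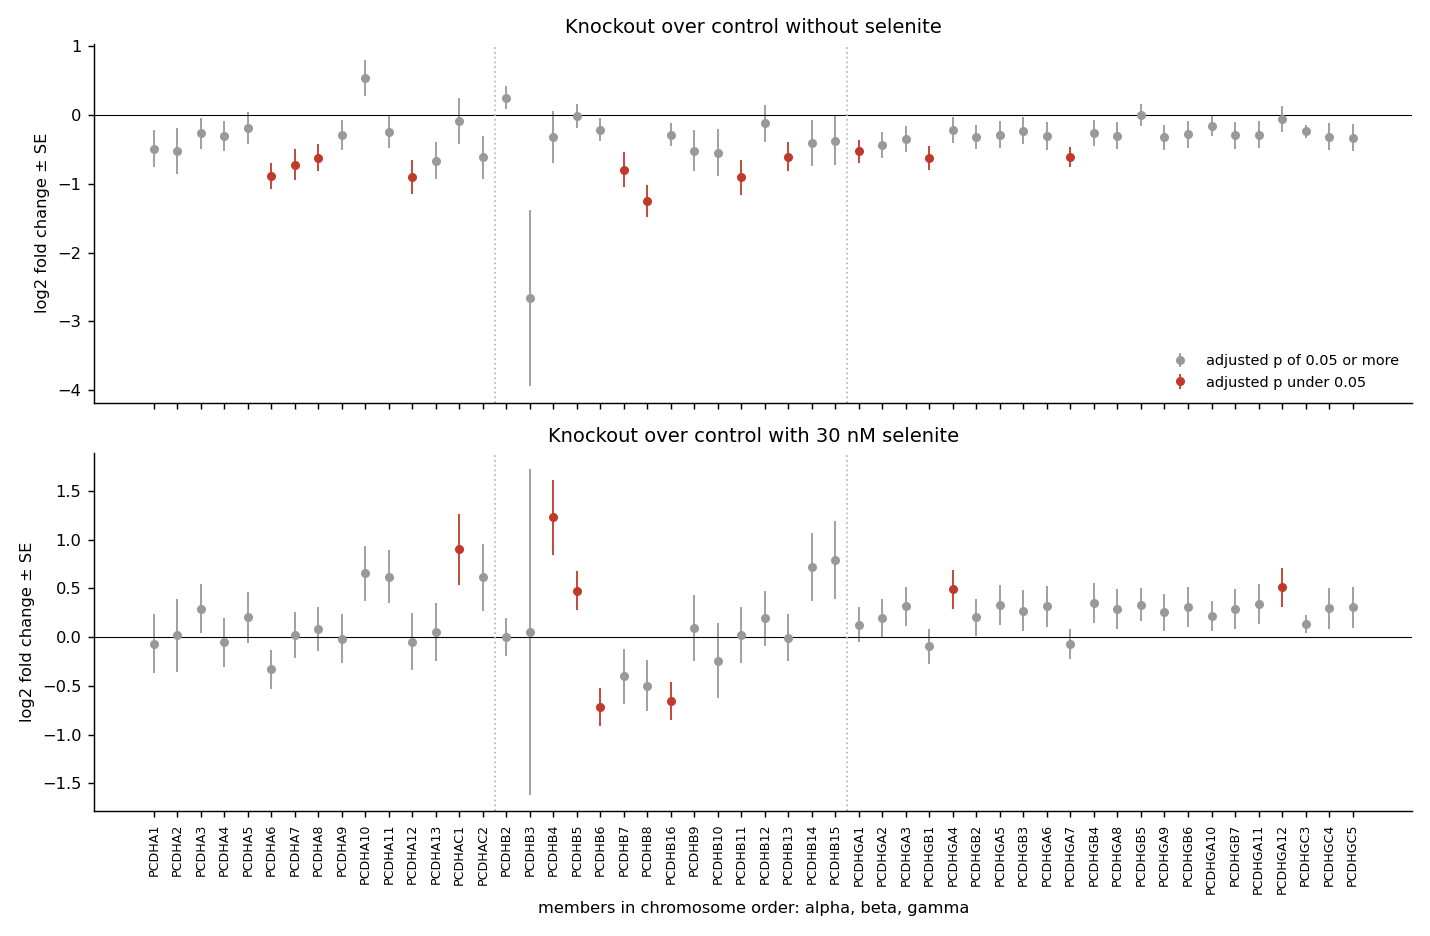
Log2 fold change ± SE of all 52 members in knockout over control cells, without selenite (top) and with 30 nM selenite (bottom), in chromosome order with dotted lines between clusters. Red points passed the edgeR test: 11 without selenite, all below 0, and 7 with selenite, 5 above and 2 below 0.

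Of the 11 calls, those of PCDHA6, PCDHB8 and PCDHGA7 held when any 1 of the 12 libraries was left out, and the other 8 were lost in at least 1 such fit. The count of called members was 5 without control replicate 3, 7 without control replicate 1 and 7 without knockout replicate 2, all of the groups without selenite. DESeq2 called 5, namely PCDHA6, PCDHA12, PCDHB8, PCDHGB1 and PCDHGA7.

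With selenite in both genotypes, none of those 11 members passed the test. Of the 52, 5 were higher in knockout cells and 2 lower, 13.5% in all, while 42.9% of all genes tested passed, 21.3% higher and 21.6% lower. The median log2 fold change was 0.20, against -0.02 over all genes, with 38 positive and 14 negative values. It was -0.14 with the floor taken off, where 4 members were higher and 6 lower. Gamma members then had a median of -0.16, against 0.29 as deposited, and alpha members one of -0.52, against 0.05. The alpha count taken off was itself at 0.78 ± 0.38 (edgeR adjusted p = 0.0946). The gamma one was at 0.32 ± 0.21 (edgeR adjusted p = 0.225). Members that rose less than the count taken off are lowered by this construction.

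PCDHB6 had 34.9, 24.6 and 29.9 CPM in knockout with selenite, against 53.9, 43.5 and 54.4 CPM in control libraries with selenite. PCDHB16 had 31.6, 31.1 and 29.9 CPM in knockout, against 52.3, 46.7 and 47.6 CPM in control libraries. Both beta isoforms were lower in knockout in every library, by -0.72 ± 0.20 and -0.65 ± 0.19 on the log2 scale (edgeR adjusted p = 0.00355 and 0.00651). PCDHB4 had 14.5, 13.1 and 26.0 CPM in knockout with selenite, against 9.8, 5.3 and 6.0 CPM in control libraries, and was higher by 1.23 ± 0.39 (edgeR adjusted p = 0.0103). PCDHAC1, a C-type alpha isoform, had 18.4, 13.1 and 14.0 CPM in knockout, against 9.8, 4.2 and 10.6 CPM in control libraries, higher by 0.90 ± 0.36 (edgeR adjusted p = 0.0429). PCDHAC1 is itself the lowest alpha member or close to it, with 0, 2 and 1 counts above the lowest in knockout with selenite. In control libraries with selenite these were 0, 0 and 0. Taking the floor off removes its own counts, so the fit on that scale (edgeR adjusted p = 0.157) cannot decide its call. The call of PCDHAC1 was lost by DESeq2 (adjusted p = 0.153) and in 5 of 12 fits that left out 1 library. PCDHB4 and PCDHAC1 are at low levels, where 3 counts correspond to 1.97 to 5.99 CPM in single libraries.

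PCDHB5 had 63.9, 42.6 and 79.9 CPM in knockout with selenite, against 51.5, 35.0 and 45.3 CPM in control libraries, which overlapped (log2 fold change 0.48 ± 0.20, edgeR adjusted p = 0.0491). PCDHGA4 had 59.9, 54.1 and 45.9 CPM in knockout, against 40.8, 45.6 and 31.7 CPM in control libraries (0.49 ± 0.20, edgeR adjusted p = 0.0427). PCDHGA12 had 63.2, 60.7 and 47.9 CPM in knockout, against 46.6, 48.8 and 29.4 CPM in control libraries, which overlapped (0.51 ± 0.20, edgeR adjusted p = 0.0350). Both gamma members carry few counts above the floor: PCDHGA4 had 13, 4 and 5 of them in knockout with selenite, against 2, 0 and 4 in control libraries with selenite. On the deposited counts DESeq2 did not call PCDHB5, PCDHGA4 or PCDHGA12 (adjusted p = 0.117, 0.138 and 0.112). Their calls were lost in 8, 8 and 3 of the 12 fits that left out 1 library, and all were lost after thinning. With the floor taken off, PCDHGA12 and PCDHGA4 were higher, at 1.68 ± 0.50 (edgeR adjusted p = 0.00659) and 2.23 ± 0.69 (edgeR adjusted p = 0.00904). PCDHGA7 and PCDHGB1 were then lower with selenite too, at -0.68 ± 0.25 (edgeR adjusted p = 0.0243) and -0.86 ± 0.29 (edgeR adjusted p = 0.0155). PCDHA6, at -0.74 ± 0.22 (edgeR adjusted p = 0.00741), and PCDHA1, at -1.12 ± 0.44 (edgeR adjusted p = 0.0380), were also lower on that scale. Taking off the alpha floor, whose own estimate was above 0 there, lowers both values by construction. As deposited PCDHA10 was at 0.65 ± 0.28 with selenite (edgeR adjusted p = 0.0584). With the floor off PCDHA10 was at 0.49 ± 0.42 (edgeR adjusted p = 0.353).

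The cluster totals with selenite were 177 ± 2.80 CPM in knockout and 230 ± 38.1 CPM in control cells for alpha, 372 ± 43.4 and 380 ± 39.2 CPM for beta, and 572 ± 27.0 and 540 ± 19.4 CPM for gamma (SD, n = 3 each; knockout before control). Alpha libraries did not overlap between the genotypes, and beta libraries did. Gamma libraries narrowly did not, with 555 CPM in the lowest knockout library and 553 CPM in the highest control library. The calls of PCDHB6 and PCDHB16 held when any 1 library was left out, but not without both shallow libraries, where the log2 fold changes were -0.53 (edgeR adjusted p = 0.0985) and -0.61 (edgeR adjusted p = 0.0582). The call of PCDHB4 was lost without replicate 3 of the knockout with selenite (edgeR adjusted p = 0.0662). The count of called members was 4 without that group's replicate 1, without control replicate 3 and without knockout replicate 3 of the groups without selenite.

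**Figure D3:**
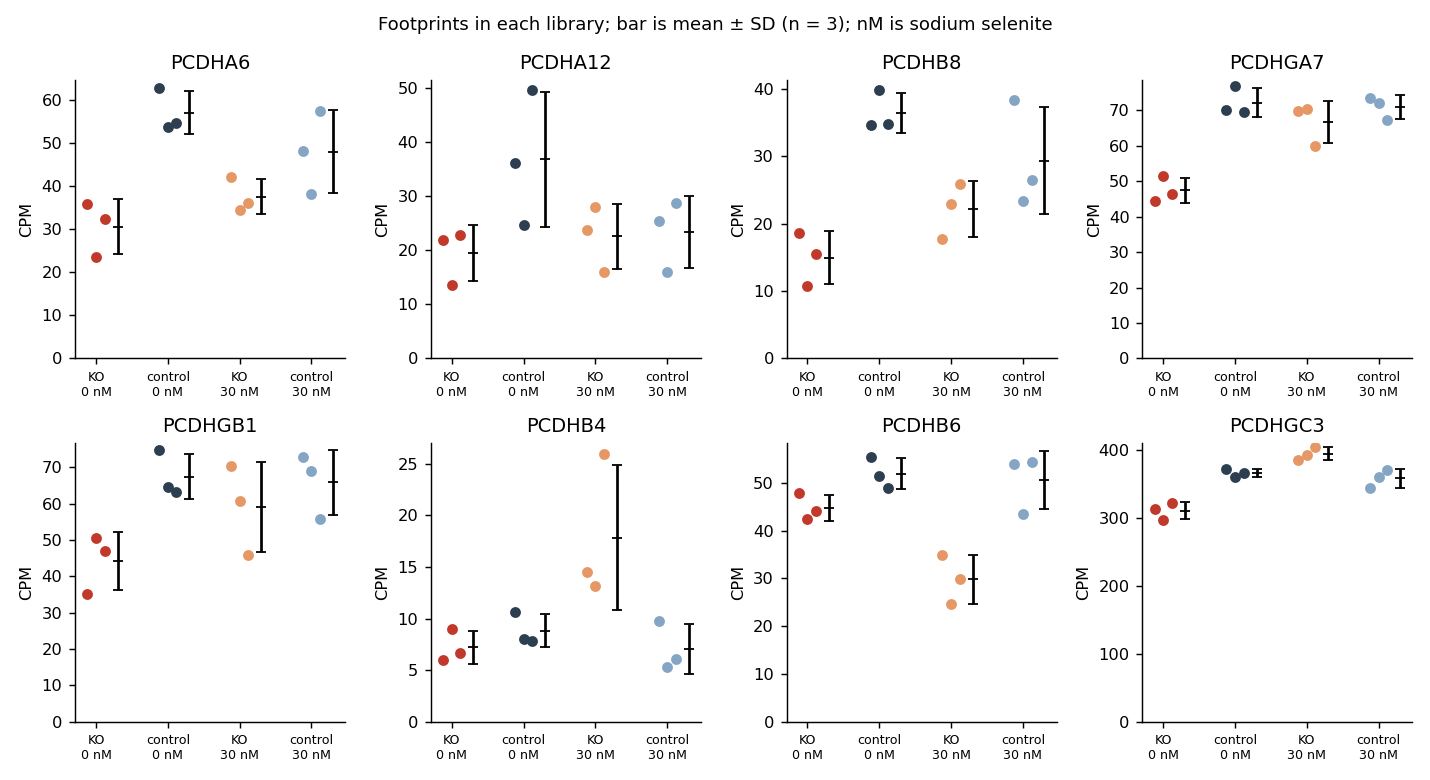
Footprints in CPM of 8 members in each library, with the mean ± SD of each group of 3; each panel has its own axis, which starts at 0. PCDHA6, PCDHA12, PCDHB8, PCDHGA7 and PCDHGB1 are lower in knockout than in control libraries without selenite, PCDHB6 is lower in knockout with selenite, PCDHB4 is higher there, and PCDHGC3 spans 297 to 405 CPM over the 12 libraries.

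Within knockout cells, 10 of the 52 members (19.2%) were higher with selenite than without and 0 were lower, while 10.2% of all genes tested were higher and 10.3% lower. Of the 10, 8 are gamma members and 2 are beta members, PCDHB4 and PCDHB14. PCDHB4 had 14.5, 13.1 and 26.0 CPM with selenite, against 6.0, 9.0 and 6.6 CPM without (log2 fold change 1.24 ± 0.38, edgeR adjusted p = 0.0190). PCDHB14 had 13.8, 14.8 and 29.9 CPM with selenite, against 10.6, 7.2 and 9.6 CPM without (0.94 ± 0.35, edgeR adjusted p = 0.0491). In both, the highest value came from replicate 3 of the selenite group, the shallowest library. Without it the log2 fold change of PCDHB4 was 0.97 (edgeR adjusted p = 0.114) and that of PCDHB14 was 0.61 (edgeR adjusted p = 0.285).

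PCDHGC3 had 386, 393 and 405 CPM in knockout cells with selenite, against 314, 297 and 322 CPM without, and the groups did not overlap. Its log2 fold change was 0.34 ± 0.09 (edgeR adjusted p = 0.00986), and 0.32 ± 0.10 on counts above the floor (edgeR adjusted p = 0.0195). The other 7 gamma members, all of subfamily A, were PCDHGA1, PCDHGA2, PCDHGA3, PCDHGA4, PCDHGA7, PCDHGA9 and PCDHGA11, with log2 fold changes of 0.51 to 0.64. With the floor taken off none of these 7 was called, and 3 members remained: PCDHGC3, PCDHB4 and PCDHB14. The floor itself was higher with selenite by 0.54 ± 0.21 (edgeR adjusted p = 0.0619). The lowest gamma member stood at 51.3, 47.5 and 35.9 CPM in knockout libraries with selenite, against 25.2, 36.0 and 35.3 CPM without.

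**Figure D4:**
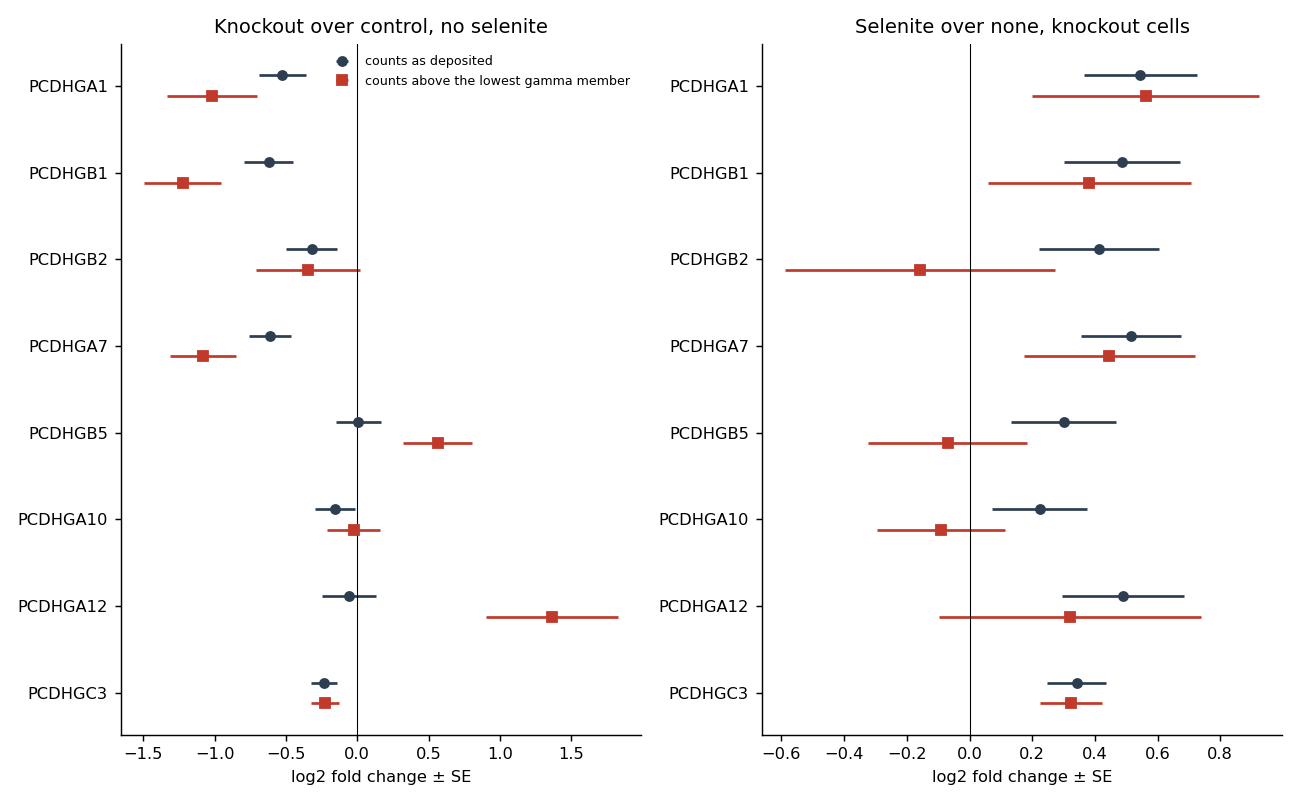
Log2 fold change ± SE of the 8 gamma members with the most counts above the floor, on counts as deposited (circles) and on counts above the lowest gamma member of each library (squares). Left, knockout over control without selenite: PCDHGA1, PCDHGB1 and PCDHGA7 move further below 0 and PCDHGA12 above it; right, selenite over none in knockout cells: PCDHGC3 is at 0.34 and 0.32 while PCDHGB2, PCDHGB5 and PCDHGA10 move to 0 or below.

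Both shallow libraries belong to the knockout with selenite. Without them, and with the remaining library taken to vary like those of the other groups, PCDHGC3 had a log2 fold change of 0.33. That fit leaves 1 library in the group, so it cannot decide the calls. Leaving out 1 library at a time, the call of PCDHGC3 held in all 12 fits. The count of called members ranged from 1 without knockout replicate 1 to 16 without knockout replicate 2, both of the group without selenite. It was 2 without replicate 3 of that group, and 4 without replicate 1 or replicate 2 of the knockout with selenite. The calls over all genes moved as well, from 2149 in the full fit to 802 without knockout replicate 1 of the group without selenite. They were 2758 and 1044 without replicates 1 and 2 of the knockout with selenite.

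In control cells selenite moved no member past the threshold. The edgeR test called 0 of 52, where 0.0191% of all genes passed, 3 members had an unadjusted p under 0.05, and DESeq2 called 0. PCDHGC3 had 344, 361 and 372 CPM in control cells with selenite, against 372, 360 and 366 CPM without, which overlapped, with a log2 difference of -0.03 (95% interval -0.21 to 0.15). PCDHA6 had 48.2, 38.2 and 57.4 CPM with selenite, against 62.7, 53.7 and 54.6 CPM without, and PCDHB8 had 38.4, 23.3 and 26.4 CPM with selenite, against 34.7, 39.9 and 34.8 CPM without.

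The difference of the selenite response between knockout and control cells was tested as an interaction, and 0 of 52 members passed, where 7.45% of all genes did (3.76% higher and 3.69% lower in their response in knockout cells). The smallest edgeR adjusted p was 0.0732, 28 members had an unadjusted p under 0.05, and DESeq2 called 1, PCDHGC3. For PCDHGC3 the interaction was 0.37 on the log2 scale (95% interval 0.11 to 0.63, edgeR adjusted p = 0.0754). Interactions were positive for 49 members, with a median of 0.59 against 0.00 over all genes. Many gamma members repeat the gamma floor in these values, and that floor was itself at 0.63 ± 0.29 (edgeR adjusted p = 0.167). With the floor taken off, the median was 0.36 over all members, 0.19 for alpha and 0.33 for gamma, and 0 members passed. That the knockout differed from control in other members with selenite than without is therefore not shown to be a difference in response for any single member.

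Protocadherins outside the clusters, which lie alone on other chromosomes or apart on chromosome 5, were measured for 8 of 16 listed genes. Without selenite 3 were lower in the knockout and 0 higher, and with selenite 2 were lower and 1 higher. Over all genes tested, 12% were lower and 11.8% higher without selenite, and 21.6% and 21.3% with it. PCDH1, which lies within 1 Mb of the clusters, had 73.7 CPM in knockout and 132 CPM in control cells without selenite (log2 fold change -0.84 ± 0.13, edgeR adjusted p = 4.68e-06). PCDH9 fell by 0.90 ± 0.26 (edgeR adjusted p = 0.00956). PCDH20 was at 0 in the knockout libraries without selenite, for which the limit is 3 counts per library, and averaged 16.1 CPM in control cells. Of 7 classical cadherins and catenins tested, 5 were lower and 1 higher without selenite. CDH2, or N-cadherin, was the higher one, with 739 CPM in knockout and 396 CPM in control cells (0.90 ± 0.10), while CDH13 and CDH19, the cadherin of Schwann cell precursors, were at -1.62 ± 0.13 and -1.90 ± 0.13.

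Of 22 tested genes that neighbour the clusters within 1 Mb, 1 was higher and 4 lower in knockout without selenite, with a median log2 fold change of -0.04, and 5 were higher and 4 lower with selenite. The shares over all genes were 11.8% higher and 12% lower without selenite, and 21.3% and 21.6% with it. CYSTM1 was the higher one without selenite, at 66.0 CPM in knockout and 43.2 CPM in control cells (0.60 ± 0.16, edgeR adjusted p = 0.00567).

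Of 15 CTCF and cohesin genes, 6 were lower in knockout without selenite and 10 with selenite, and 0 were higher in either. Among all genes tested, 12% were lower and 11.8% higher without selenite, and 21.6% and 21.3% with it. RAD21, the cohesin subunit that closes the ring, had 308 CPM in knockout and 573 CPM in control cells without selenite (-0.90 ± 0.10), and 239 CPM against 557 CPM with selenite (-1.20 ± 0.11). ESCO2, which acetylates cohesin, was at -0.92 ± 0.18 without selenite and -1.31 ± 0.22 with it. STAG2, a cohesin subunit, was at -0.55 ± 0.14 and MAU2, a cohesin loader, at -0.67 ± 0.16 without selenite. The median over the list was -0.26 without selenite and -0.49 with it.

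Of 17 tested repressors and DNA methylation enzymes, 5 were lower and 0 higher in knockout without selenite, and 3 were lower and 1 higher with selenite. For this list and the next, the all-gene shares were 12% lower and 11.8% higher without selenite, and 21.6% and 21.3% with it. SMCHD1, which silences clustered protocadherins in mouse, was at -0.52 ± 0.16 without selenite (edgeR adjusted p = 0.0138) and -1.03 ± 0.18 with it. DNMT1 and UHRF1, which maintain CpG methylation, were at -0.61 ± 0.12 and -0.56 ± 0.15 without selenite, and TET2, which oxidises methylcytosine, was at -0.80 ± 0.23. Of 19 tested partners and proteases of protocadherin proteins, 6 were lower and 0 higher without selenite, and 8 were lower and 2 higher with it. ADAM10, the protease that sheds gamma protocadherins, had 191 CPM in knockout and 343 CPM in control cells without selenite (-0.85 ± 0.12), and 118 CPM against 314 CPM with selenite (-1.39 ± 0.13). FYN, a kinase that binds alpha protocadherins, was at -1.10 ± 0.21 without selenite. AXIN1, the partner of PCDHGC3, was higher in knockout with selenite, with 32.2 CPM against 13.0 CPM in control cells (1.20 ± 0.31, edgeR adjusted p = 0.00193). Whether any of these moved the protocadherin footprints was not tested.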

How the data were processed

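The 12 libraries hold ribosome footprints of A375 cells. Per the submitters' processing notes Trim Galore 0.6.10, STAR 2.7.9a and DESeq2 were used with GRCh38, while counting, annotation and use of molecular identifiers are not given in the sources used here. The authors deposited raw counts per gene, which were analysed here, and a table of normalized signal, which the authors had divided by 1 factor per library and which served only to check those factors.

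Counts were tested with edgeR 4.0.16 (R 4.3.3, limma 3.58.1): filterByExpr (minimum count 10, minimum total 15) kept 10467 genes, all 52 members among them. After TMM scaling, a quasi-likelihood fit with 1 coefficient per group gave 5 contrasts, adjusted by Benjamini-Hochberg at 0.05. Standard errors come from the F statistic, so they are approximate. CPM use TMM-scaled library sizes. The test was checked on simulated data.

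Counts shared within a cluster were described by the lowest member per library, and an added alternative took that count off each alpha and gamma member and entered it once. Cluster totals and shares carry no test. Other settings were DESeq2 1.42.0, its size factors, no filter, thinning to 520989 counts, leaving out libraries, and replicate number as a block. Same-numbered libraries of different groups correlated by -0.04 to 0.29 in their deviations from group means, with 7 of 18 above 0.1, so the numbers were not taken as pairs. Intervals of shares are exact binomial intervals at 95%.

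Named are all members by cluster, with library values for those that passed or had the most counts, and up to 4 genes of each other list. The members and lists were chosen with earlier results of these data known.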

Additional observations from a re-analysis of the deposited data

Results flagged for a closer look

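None of the members had a selenite response that differed between knockout and control cells past the threshold. Among the other named genes 9 did, by edgeR's interaction test with Benjamini-Hochberg adjustment, and each value is the response in knockout minus that in control cells on the log2 scale. The cohesin genes PDS5A and SMC3 were at -0.61 (edgeR adjusted p = 0.0224) and -0.59 (edgeR adjusted p = 0.0325), and the protease ADAM10 was at -0.55 (edgeR adjusted p = 0.0469). TRIM28, a corepressor of zinc finger proteins, was at 0.54 (edgeR adjusted p = 0.0170), and UHRF1 at 0.68 (edgeR adjusted p = 0.0428). The neighbouring genes DELE1 and SPRY4 were at 0.91 (edgeR adjusted p = 0.0174) and 0.65 (edgeR adjusted p = 0.0257). Among markers, SOX10 was at 0.95 (edgeR adjusted p = 0.000696) and KRT18 at 0.56 (edgeR adjusted p = 0.0346). Over all genes 780 passed, and 10 passed without both shallow libraries.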

How the results depend on the processing

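The counts of called members moved with the test, the depth and single libraries. For knockout versus control without selenite 11 members were called, against 5 by DESeq2 and 7 after thinning, and 5 to 12 with 1 library left out. For knockout versus control with selenite 7 were called, against 3 by DESeq2 and 2 after thinning, and 4 to 7 with 1 library left out. For selenite versus none in knockout cells 10 were called, against 1 by DESeq2, 3 after thinning, 3 with shared counts removed and 0 without both shallow libraries, and 1 to 16 with 1 library left out. For the interaction 0 were called, against 1 by DESeq2 and 1 with the replicate block, and 0 to 1 with 1 library left out. For selenite versus none in control cells 0 were called under each setting run. With the replicate block the other counts were 13 for knockout versus control without selenite, 8 with selenite and 14 for selenite versus none in knockout cells, and the replicate numbers were not taken as pairs. PCDHGA12, at -0.06 without selenite, reversed to 1.36 with shared counts removed, an alternative whose construction takes the floor off. Over all genes, knockout versus control without selenite called 2501, against 1656 by DESeq2 and 1450 after thinning, and with selenite 4494, against 2777 without both shallow libraries. Selenite versus none in knockout cells called 2149 genes, against 1404 by DESeq2, 1366 after thinning, 54 without both shallow libraries and 802 to 2758 with 1 library left out. The interaction called 780 genes, against 393 after thinning, 1268 with the replicate block, 10 without both shallow libraries and 123 to 1707 with 1 library left out. Selenite versus none in control cells called 2 genes, against 5 with the block. The gamma total, a log2 ratio of group means of -0.25 without selenite in knockout over control and -0.03 for selenite over none in control cells, was -0.33 and -0.13 after thinning. Except where a setting leaves out libraries or counts, the cause of these shifts was not tested. A level per codon was not run, since no protein table was used here. Depth limits what can be seen: the floor-free counts of most gamma members are too few to compare.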

Other observations

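Markers of other cell types were also summed in each library. Of 8 epithelial markers 4 were in the table and summed to 232 to 323 CPM in knockout against 331 to 337 CPM in control cells without selenite, and to 350 to 433 CPM against 279 to 314 CPM with selenite. Of 7 fibroblast markers 6 were in the table, at 47.8 to 65.8 CPM in knockout against 42.0 to 42.6 CPM in control cells without selenite, and 51.9 to 65.6 CPM against 39.3 to 44.9 CPM with selenite. Of 5 immune markers 2 were in the table, at 23.6 to 32.4 CPM in knockout against 44.3 to 55.3 CPM in control cells without selenite, and 27.6 to 31.1 CPM against 40.8 to 45.6 CPM with selenite.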
